A study of Mus musculus with 6 samples.

Results

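The genes described here are grouped as the inducible acute phase genes of mouse liver, although Saa4 is made there without induction. They are the serum amyloid A genes Saa1, Saa2, Saa3 and Saa4, together with Orm2, Hp, Lcn2, Socs3, Steap4 and Il1rn. They were chosen by symbol, as every probe set annotated to exactly 1 gene symbol among these 10 names. This gave 17 probe sets of 10 genes, out of 45037 probe sets tested and 18193 genes with such a probe set.

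In inflammation, cytokines such as interleukin 6 and interleukin 1 reach the hepatocyte and switch on genes of secreted plasma proteins, through STAT3, NF-kB and C/EBP transcription factors. Serum amyloid A proteins ride on high-density lipoprotein and are among the plasma proteins that rise most steeply in this response. Feedback inhibitors such as SOCS3, which blocks cytokine receptor signalling, and the interleukin 1 receptor antagonist belong to the same programme.

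Liver was taken from 6 male BALB/cCrSlc mice, an inbred albino strain, at 17 weeks of age, each measured on 1 Affymetrix 3' expression array. For 10 weeks all of them ate low-protein AIN-93M-based food, with 10% casein in the control diet 10C and 6% casein plus 4% fish collagen peptide in 6C+4CP, so that less casein and added peptide cannot be told apart. From 12 mice on each diet, 3 of medium food efficiency had been taken, and tissue was collected in the morning after 3 h without food. The 3 arrays of a diet are thus separate mice, and an exact permutation test of 3 against 3 cannot go below p = 0.1. Values are read as log2, and every fold assumes this, since no source used here states the base.

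The 6 mice share a single value in most probe sets, and only 17.3% ranged over more than 0.01 (7791 of 45037). Such a shared value does not show whether the level differed between mice. Array medians lay between 6.306 and 6.308. Among the varying probe sets, the mouse 10C replicate 2 had the highest value in 26.2% and the mouse 10C replicate 3 the lowest in 25.9%, and no other mouse was as often highest or lowest. Of 8 hepatocyte markers 7 were measured, with Alb, serum albumin, at 14.23 on every array. In whole tissue, fewer cells of a type and less RNA per cell cannot be told apart.

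Livers on 6C+4CP did not differ from livers on 10C in these genes beyond the test's threshold, and the widest feature of the group was a single mouse. In 10C replicate 2, Saa1 and Saa2 stood 18.4 to 29.7 times above the next highest mouse. The smaller gaps between the diets went in opposite directions: a probe set of Saa4 was lower and a probe set of Socs3 higher in all 3 mice on 6C+4CP. These are 2 of the 12 member probe sets that varied (16.7%), against 19.9% of all varying probe sets. The other Saa4 probe set overlapped between the diets, and the other Socs3 probe sets held shared values. The limma test called 0 of the 17 probe sets at an adjusted p under 0.05, against 0.242% of all probe sets (109 of 45037). Of those 109 only 6 varied, or 0.077% of the varying probe sets. At an unadjusted p under 0.05 limma gave 3 of the 17, against 6.42% of all probe sets, and 1 of these 3 held a shared value. Among varying probe sets it was 2 of 12, against 13.1%. The count over all probe sets ran from 285 to 398 when any 1 of the 6 mice was left out, and that over the members was 0 each time.

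Of the 17 probe sets 12 varied, and they belong to 9 of the 10 genes. Of the 17, 8 ranged over more than 1 in log2, against 1.61% of all probe sets (724 of 45037). All 8 lie among the 12 that varied, as all 724 lie among the 7791 that did. The SD was wider in 10C in 8 of the 12, against 61.5% of all varying probe sets. The diet means were lower on 6C+4CP in 10 of the 12 and higher in 2, with 52.1% lower among all varying probe sets. The median difference was -0.37 in log2, against -0.0040 over all varying probe sets, and without 10C replicate 2 it was -0.057, with 8 lower and 4 higher. The ranges of the diets were separate in 2 of the 12, 1 lower and 1 higher, against 19.9% of all varying probe sets (9.11% lower and 10.8% higher). Leaving out 10C replicate 1 gave 4, 6C+4CP replicate 2 also 4, 10C replicate 2 gave 3 and 6C+4CP replicate 3 gave 7. The share among all varying probe sets was then 29.2%, 32.9%, 28.3% and 27.7%. Leaving out 10C replicate 3 or 6C+4CP replicate 1 kept the count at 2, where that share was 37.7% and 27.1%. The 5 that 6C+4CP replicate 3 added were Saa1 1419075_s_at, Saa2, Lcn2 and both of Steap4. The mouse 6C+4CP replicate 3 was the second highest in the probe sets of Saa1, Saa2, Lcn2 and Steap4, inside the range of the other diet in each.

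**Figure D1:**
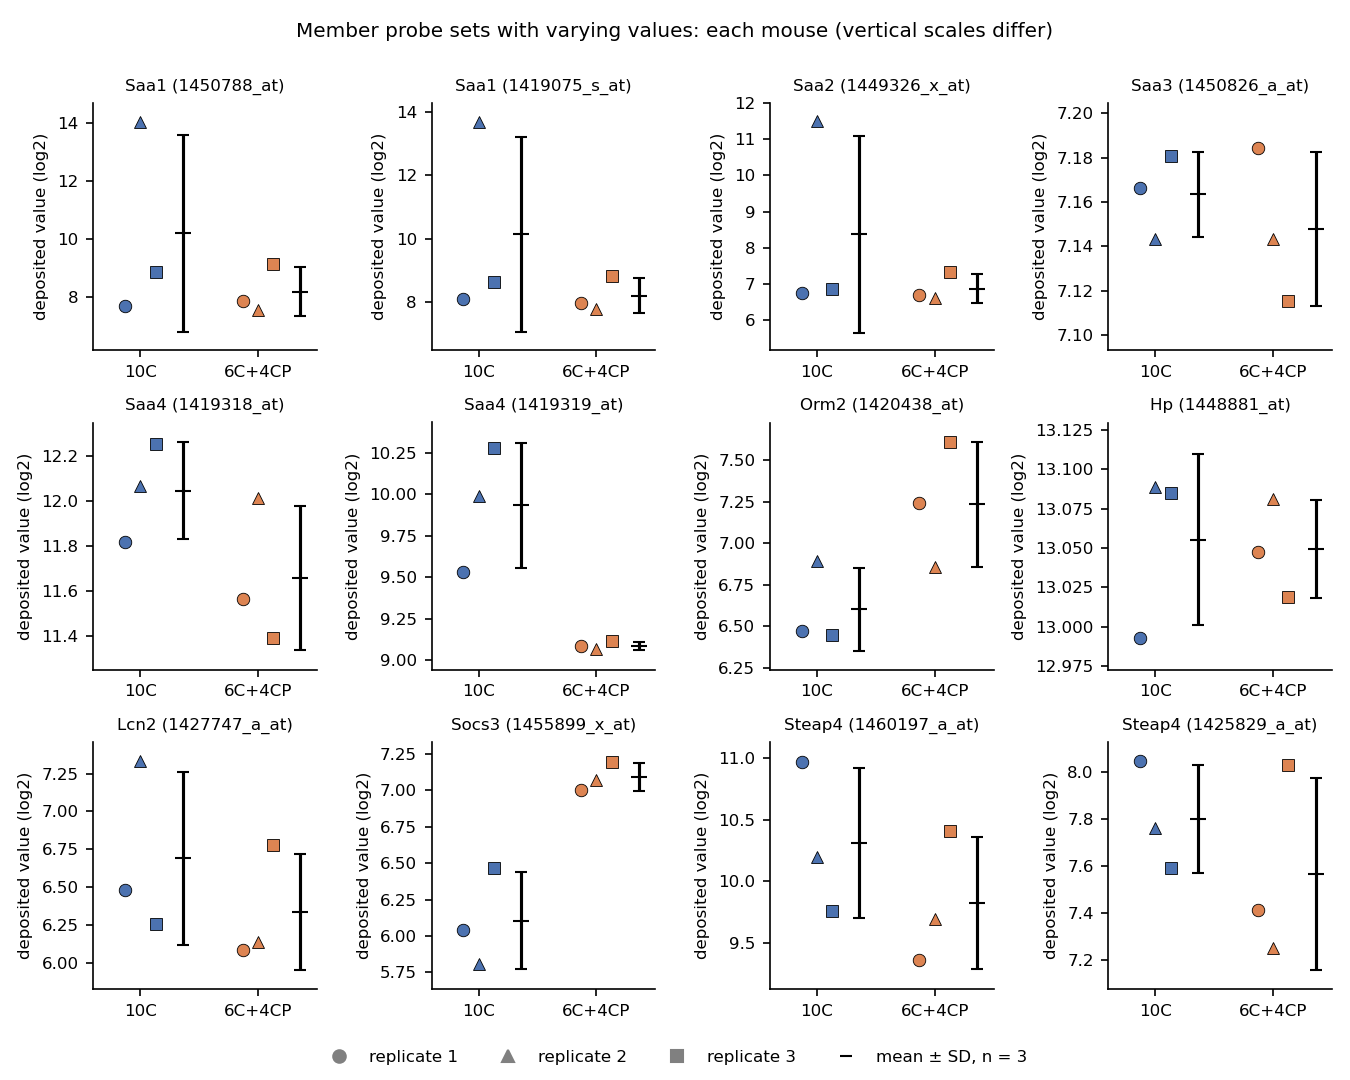
Deposited log2 values of the 12 varying member probe sets in each mouse, with 10C in blue and 6C+4CP in orange, marker shapes for the replicate number, and the mean ± SD of 3 mice beside each diet. Vertical scales differ between panels. The triangle of 10C replicate 2 lies far above the other mice for Saa1 and Saa2 (14.03, 13.70 and 11.52), while the diets separate for Saa4 1419319_at and Socs3 1455899_x_at.

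Saa1 and Saa2 encode the main circulating serum amyloid A proteins of the acute phase. For Saa1, probe set 1450788_at gave 7.68, 14.03 and 8.84 in 10C, in the order of the replicates here and below, and 7.87, 7.54 and 9.13 in 6C+4CP. The high value is that of 10C replicate 2, and the other 5 mice interleave without regard to diet. The second Saa1 probe set, 1419075_s_at, read 8.09, 13.70 and 8.62 in 10C and 7.96, 7.76 and 8.81 in 6C+4CP. The Saa2 probe set 1449326_x_at read 6.73, 11.52 and 6.86 in 10C and 6.68, 6.60 and 7.31 in 6C+4CP. In all 3 probe sets the order began with 10C replicate 2, 6C+4CP replicate 3 and 10C replicate 3, and 6C+4CP replicate 2 was the lowest.

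Over 45037 probe sets, Saa1 1450788_at had the widest range across the mice (6.49) and Saa1 1419075_s_at the next widest (5.94), while Saa2 ranked 8 (4.91). The highest mouse exceeded the next by more than 4 in 3 probe sets of the whole array, and these 3 are the Saa1 and Saa2 ones. For 1450788_at the gap was 4.89, or 29.7 times, for 1419075_s_at it was also 4.89, and for Saa2 4.20, or 18.4 times. Against the mean of the other 10C mice, 10C replicate 2 was 54.3, 40.6 and 26.4 times higher in the same order. These sizes describe 1 animal, and its cause was not tested.

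Averaged over the diets, this mouse set the difference of both genes. For Saa1 1450788_at the 10C mean was 10.18 ± 3.38 (SD, n = 3) and the 6C+4CP mean 8.18 ± 0.84. The log2 difference was -2.0 (SE 1.97; limma, adjusted p = 0.852). Without 10C replicate 2 the difference was -0.082 (SE 0.75). Saa2 differed by -1.50 (SE 1.56; limma, adjusted p = 0.878), and without that mouse by 0.073 (SE 0.29), with the direction turned. Among the other 5 mice Saa1 1450788_at ranged over 1.60, with 6C+4CP replicate 3 and 10C replicate 3 above the rest, and Saa2 over 0.71, with 6C+4CP replicate 3 above the rest.

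How far the probe sets separate Saa1 from Saa2 was not tested, since no probe sequences were used. Probe set 1450788_at carries Saa1's own RefSeq accession and the plain ending _at. The platform annotation also gives 1419075_s_at to Saa1, but the accession beside it is that of Saa2 in RefSeq, the same accession that stands beside the Saa2 probe set. Affymetrix uses the endings _s_at and _x_at for probe sets whose probes can match several related transcripts. Saa1 and Saa2 are neighbours on mouse chromosome 7, where RefSeq lists Saa3, Saa4, Saa1 and Saa2 within a single cluster. Their values are therefore given per probe set.

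The sequences just upstream of the start are shown for Saa1 and Saa2, whose probe sets moved together across the mice. Those of their neighbour Saa4, which did not follow them, are also shown. They are the 250 bases before the start in RefSeq's table (GRCm38.p6), 5′ to 3′ on the gene's own strand. These are chr7:46742981-46743230 (minus strand), chr7:46751583-46751832 (plus) and chr7:46732604-46732853 (minus), and capitals mark matches to the C/EBP motif TTNNGNAA on either strand.
Saa1: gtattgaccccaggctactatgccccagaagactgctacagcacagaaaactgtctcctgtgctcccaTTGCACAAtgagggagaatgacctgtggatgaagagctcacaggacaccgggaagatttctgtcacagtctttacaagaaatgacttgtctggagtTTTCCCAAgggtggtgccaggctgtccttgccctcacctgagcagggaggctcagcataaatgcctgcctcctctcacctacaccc
Saa2: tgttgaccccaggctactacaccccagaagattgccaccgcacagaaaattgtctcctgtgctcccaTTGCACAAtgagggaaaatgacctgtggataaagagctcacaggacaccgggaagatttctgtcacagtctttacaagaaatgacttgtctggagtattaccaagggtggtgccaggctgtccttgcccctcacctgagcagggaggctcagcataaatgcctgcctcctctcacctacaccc
Saa4: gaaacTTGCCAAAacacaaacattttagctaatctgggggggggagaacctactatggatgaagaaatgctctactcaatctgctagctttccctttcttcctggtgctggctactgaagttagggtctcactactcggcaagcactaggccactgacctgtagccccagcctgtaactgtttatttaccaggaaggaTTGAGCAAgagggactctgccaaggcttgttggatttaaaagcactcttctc

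Aligned end to end, Saa1 and Saa2 were identical in 238 of 251 columns (94.8%), and Saa1 and Saa4 in 145 of 301 (48.2%). The window of Saa3, which did not follow them either and is not shown, was identical to Saa1 in 154 of 295 columns (52.2%). It held 4 C/EBP matches. Whether these sequences bear on the values was not tested. Saa1 and Saa2 share the match TTGCACAA, from -182 to -175 in Saa1 and from -183 to -176 in Saa2, counted from the start. Saa1 has a further match, TTTCCCAA, from -86 to -79, where Saa2 has none. The Saa4 window held 2 matches, and none of the 3 windows shown held the STAT motif TTCNNNGAA or either of 2 NF-kB motifs of 10 letters. The set of upstream windows used here held 9 of the 10 genes, all but Hp. The C/EBP motif was found for 8 of these 9, STAT for 2 (Socs3 and Steap4) and NF-kB for 3 (Il1rn, Socs3 and Steap4). A gene counted if any of its windows held a match, and Il1rn had several windows. Counted per window instead, over all 32851 windows of the set, the motifs were found in 36.8%, 7.02% and 18.2%, overlapping matches included. A match for C/EBP is thus common, and none of these letters shows binding.

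Saa4, a serum amyloid A made by the liver without induction and carried on high-density lipoprotein, was lower on 6C+4CP in its probe set 1419319_at. It read 9.53, 9.99 and 10.28 in 10C and 9.08, 9.06 and 9.11 in 6C+4CP. All 10C mice were above all 6C+4CP mice, and the spread was wide in 10C (SD 0.38) and narrow in 6C+4CP (SD 0.024). The difference was -0.85 (SE 0.22), or 1.80 times lower, and it did not pass (limma, adjusted p = 0.591, and 0.162 to 1 over its alternatives). The brighter Saa4 probe set 1419318_at read 11.82, 12.07 and 12.25 in 10C and 11.56, 12.01 and 11.39 in 6C+4CP. There the diets overlapped through 6C+4CP replicate 2, with a difference of -0.39 (SE 0.22; limma, adjusted p = 0.777). Without 10C replicate 2 both Saa4 differences stayed close, at -0.82 and -0.38, and in neither probe set was that mouse the highest.

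Saa3, the serum amyloid A that macrophages and fat also make, read 7.17, 7.14 and 7.18 in 10C and 7.18, 7.14 and 7.12 in 6C+4CP. All mice lay within 0.069 of each other, and the diets overlapped. Its difference was -0.016 (SE 0.022; limma, adjusted p = 0.923), and 10C replicate 2 with 7.14 was the second lowest mouse. The steep Saa1 and Saa2 values of that mouse were thus not matched in the Saa3 and Saa4 probe sets of the same cluster. The Saa3 values lay close to a single shared value, so they show little about differences between mice.

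**Figure D2:**
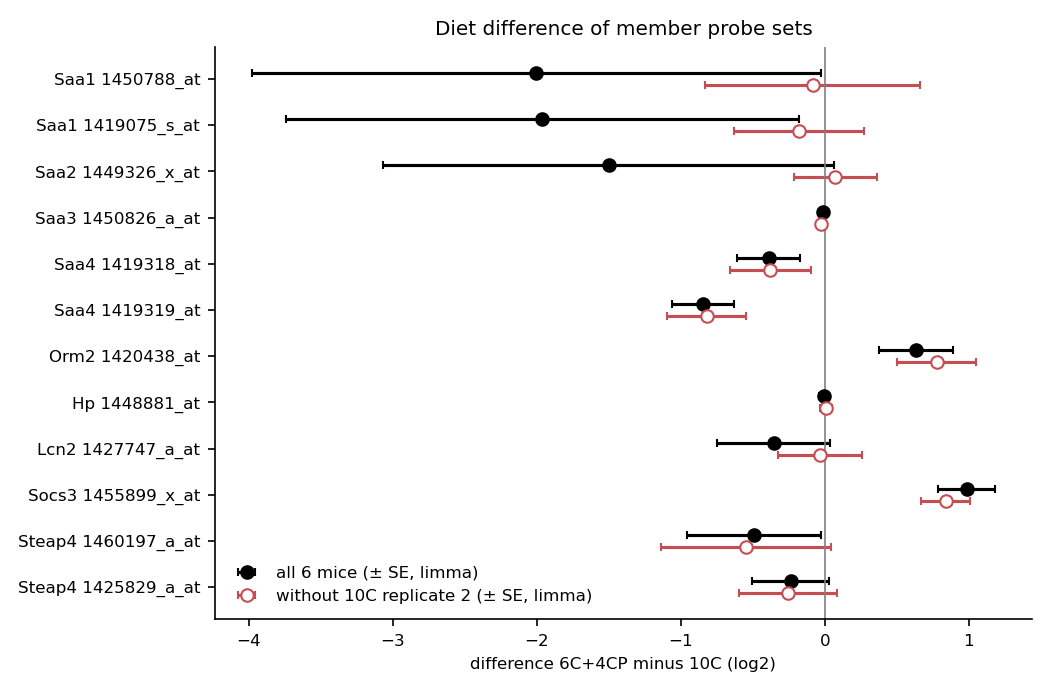
Difference in mean log2 value, 6C+4CP minus 10C, for the 12 varying member probe sets, with bars of 1 SE from limma. Filled points use all 6 mice and open points leave out 10C replicate 2: Saa1 1450788_at moves from -2.0 to -0.082 and Saa2 from -1.50 to 0.073, while Saa4 1419319_at stays at -0.85 and -0.82 and Socs3 at 0.99 and 0.84.

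Among the other plasma proteins, Hp and Orm2 took different courses. Hp, haptoglobin, which binds free haemoglobin, read 12.99, 13.09 and 13.08 in 10C and 13.05, 13.08 and 13.02 in 6C+4CP. All mice lay within 0.096 of each other, and the difference was -0.0062 (SE 0.036; limma, adjusted p = 1), with the sign turned after quantile normalization and without 10C replicate 2, 10C replicate 3 or 6C+4CP replicate 3. Orm2, an alpha-1-acid glycoprotein, read 6.47, 6.89 and 6.45 in 10C and 7.24, 6.85 and 7.61 in 6C+4CP. The 6C+4CP mice were the higher ones except for a narrow overlap between 10C replicate 2 and 6C+4CP replicate 2. The difference was 0.63 (SE 0.26), or 1.55 times higher, which did not pass (limma, adjusted p = 0.704). Without 10C replicate 2 it was 0.78 (SE 0.28), and the diets no longer overlapped. Its neighbour on chromosome 4, Orm1, read 11.64 to 11.96 in 10C and 11.66 to 12.16 in 6C+4CP, with a difference of 0.056 (SE 0.17) that turned below 0 without 10C replicate 3 or 6C+4CP replicate 3. Orm3 of the same cluster held a shared value of 6.13.

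Lcn2, lipocalin 2, which withholds iron-binding siderophores from bacteria, followed Saa1 in its highest mice on a much smaller scale. It read 6.48, 7.34 and 6.25 in 10C and 6.09, 6.14 and 6.78 in 6C+4CP. Its highest mouse was again 10C replicate 2, followed by 6C+4CP replicate 3, with a gap of 0.56 between them, and that mouse was 1.96 times above the mean of the other 10C mice. The diet difference was -0.36 (SE 0.39; limma, adjusted p = 0.888), and without 10C replicate 2 it was -0.032.

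Steap4, a metalloreductase of iron and copper induced by inflammatory cytokines, varied within both diets. Probe set 1460197_a_at read 10.97, 10.20 and 9.76 in 10C and 9.36, 9.69 and 10.41 in 6C+4CP. Probe set 1425829_a_at read 8.05, 7.76 and 7.59 in 10C and 7.42, 7.25 and 8.03 in 6C+4CP. Both were led by 10C replicate 1 and 6C+4CP replicate 3, and 10C replicate 2 ranked next in each, so the order of the mice was not that of Saa1. The differences were -0.49 (SE 0.46) and -0.24 (SE 0.27), which did not pass (limma, adjusted p = 0.852 and 0.897). Without 10C replicate 1 they were -0.16 and -0.11, and without 6C+4CP replicate 3 -0.79 and -0.47. Further mice moved them by over 1.5 times: leaving out 10C replicate 3 put 1460197_a_at at -0.77, leaving out 6C+4CP replicate 1 put it at -0.26, and leaving out 6C+4CP replicate 2 put 1425829_a_at at -0.078.

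The feedback inhibitors were the least readable members. Socs3 has 3 probe sets, of which 1416576_at held a shared value of 7.13 and 1456212_x_at a shared value of 6.58. The third, 1455899_x_at, read 6.04, 5.81 and 6.46 in 10C and 7.0, 7.07 and 7.19 in 6C+4CP. All mice on 6C+4CP were above all mice on 10C, by 0.99 in the mean (SE 0.20), or 1.98 times. The difference did not pass (limma, adjusted p = 0.506, and 0.121 among varying probe sets alone), and with 10C replicate 2 left out it was 0.84. The lowest mouse of this probe set was 10C replicate 2, the one with high Saa1. Its annotation carries no accession, and its ending _x_at marks probes that can match other transcripts. Il1rn, the interleukin 1 receptor antagonist, held shared values of 6.87, 6.15 and 6.11 in its 3 probe sets and shows nothing about the mice.

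The genes outside the members whose pattern over the 6 mice was most like that of Saa1 1450788_at were Arsg, Gbp6, Pdhb, Srm, Dhdds, Dtymk, Gramd1c and Hyou1. Likeness was the root mean square difference between profiles rescaled from 0 at the lowest to 1 at the highest mouse, among 640 probe sets that ranged over at least 1. It was 0.099 for Arsg, a lysosomal sulfatase, 0.11 for Gbp6, an interferon-inducible guanylate-binding protein, and 0.18 for Hyou1, a chaperone of the endoplasmic reticulum. For comparison it was 0.040 for the other Saa1 probe set, 0.076 for Saa2, 0.18 for Lcn2, 0.38 for Saa4 1419319_at, 0.48 for Steap4 1460197_a_at, 0.50 for Orm2 and 0.72 for Socs3. The 8 genes ranged over 1.02 to 1.59 in log2, against 6.49 for Saa1, and they share its highest mouse, while none has its full order of mice. With 6 mice of which 1 stands apart, this measure mainly finds probe sets that are highest in 10C replicate 2.

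**Figure D3:**
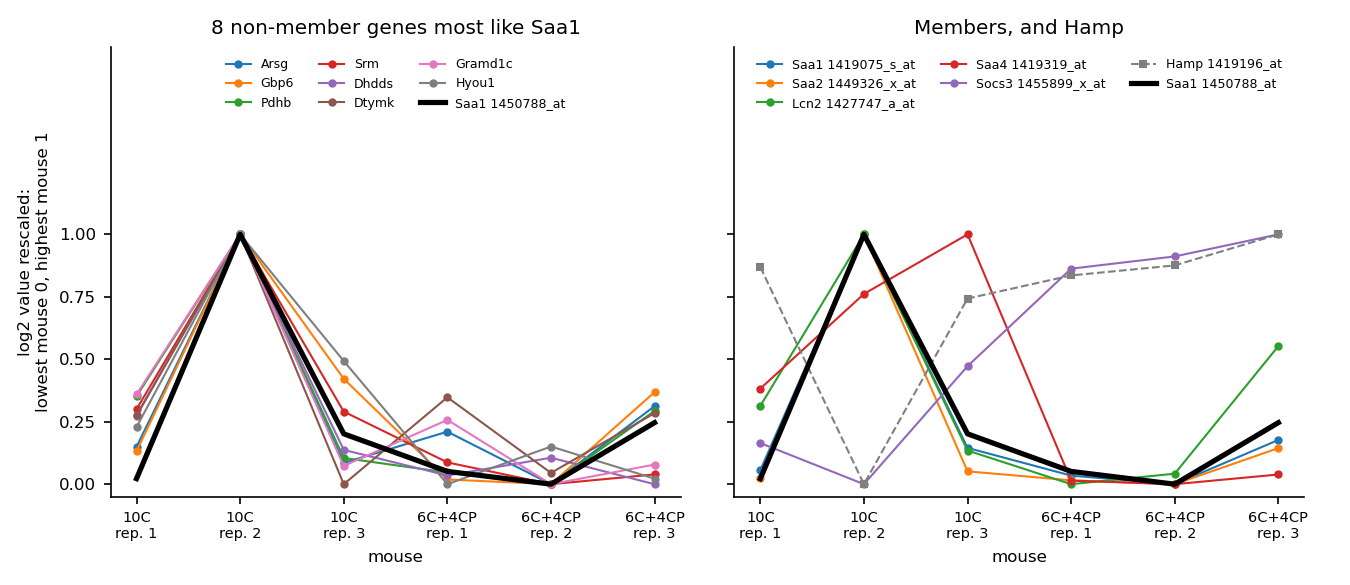
Log2 values over the 6 mice, rescaled so that the lowest mouse is 0 and the highest 1, for the 8 genes most like Saa1 (left) and for members with Hamp (right). The black line is Saa1 1450788_at. Arsg at 0.099 is the closest of the 8, and Saa2 and Lcn2 peak in 10C replicate 2, where Hamp and Socs3 are at their lowest.

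Other genes that rise in the acute phase did not share the steep values of 10C replicate 2. Of 29 on the list 25 were measured and 20 varied, 13 lower and 7 higher on 6C+4CP, with a median of -0.034 against -0.0051 over all varying genes. Limma called 0 of them, and 3 of the 20 (15.0%) did not overlap between the diets, against 21.4% of all varying genes. The 4 with the smallest p were Mbl2 and Mbl1, the mannose-binding lectins, Cp, the copper carrier ceruloplasmin, and Itih3, an inhibitor subunit of the plasma. Mbl2 read 11.55, 11.43 and 11.54 in 10C and 10.91, 10.97 and 11.19 in 6C+4CP. Its difference was -0.48 (SE 0.089; limma, adjusted p = 0.501). Mbl1 went the other way by 0.22 (SE 0.085), also without overlap. Cp differed by 0.032 in its brightest probe set and by -0.49 in 1417496_at, each without overlap, so its probe sets disagreed.

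In 10C replicate 2 itself, 4 of the 20 varying genes had their highest value, against 27.1% of all varying genes. Among these was Lrg1, a leucine-rich glycoprotein of the acute phase, which read 10.52, 11.68 and 11.38 in 10C and 10.57, 11.08 and 10.70 in 6C+4CP. Serpina3n, a protease inhibitor of the acute phase, read 10.40 in that mouse and 9.93 to 10.60 in the others. Fgb, the fibrinogen beta chain, read 13.29 there and 12.97 to 13.21 in the others.

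Hamp, the iron hormone hepcidin, which interleukin 6 induces, was lowest in the mouse with the highest Saa1. Its probe set 1419196_at read 11.37, 8.22 and 10.91 in 10C and 11.25, 11.39 and 11.84 in 6C+4CP. The value of 10C replicate 2 lay 2.69 below the next lowest mouse, or 6.46 times, and only 3 of the 45037 probe sets had a gap as wide below their second lowest mouse. Of these, 2 were the probe sets of Hamp, the other being 1419197_x_at with a gap of 2.75. The diet difference of 1419196_at was 1.33 (SE 0.98; limma, adjusted p = 0.852), and without 10C replicate 2 it was 0.35.

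Genes that fall in the acute phase differed by little, except Serpina6, which differed by 0.71 (SE 0.43) with overlap between the diets. Of 12 listed 11 were measured and 10 varied, 7 lower and 3 higher, with a median of -0.031, and limma called 0. Apoa1, which carries cholesterol in high-density lipoprotein, differed by -0.11 (SE 0.024), Ahsg, the plasma protein fetuin A, by -0.074 (SE 0.023), Apoa2 by -0.044 (SE 0.022) and Ttr, the thyroxine carrier transthyretin, by 0.032 (SE 0.012). These 4 of the 10 did not overlap between the diets in their brightest probe set, against 21.4% of all varying genes. The mouse 10C replicate 2 was the highest in 1 of the 10. The other probe sets of Ttr overlapped, with differences of 0.00038, 0.054 and 0.063. Apoa1 1419232_a_at also overlapped, at -0.061, while 1438840_x_at and 1455201_x_at did not, each at -0.11.

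Receptors and signalling genes upstream of the members gave few varying values. Of 17 genes of interleukin 6 and STAT3 signalling 6 varied, 2 higher and 4 lower, and none separated the diets. Without 10C replicate 3 the count was 5 higher and 1 lower. Then 3 of the 6 separated the diets, against 37.7% of all varying probe sets. Without 6C+4CP replicate 1 or 6C+4CP replicate 3 it was 3 higher and 3 lower. Stat3, the transcription factor that carries the interleukin 6 signal, differed by -0.27 (SE 0.26), Il6ra, the receptor, by 0.23 (SE 0.28), Lifr by -0.21 (SE 0.28) and the kinase Pim3 by 0.49 (SE 0.38). Il6 itself held a shared value of 5.75, and 10C replicate 2 was the highest mouse in 0 of the 6.

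Of 30 genes of interleukin 1, Toll-like receptor and NF-kB signalling 27 were measured and 7 varied, 5 higher and 2 lower. Nfkbiz, an inducible partner of NF-kB, read 7.22, 7.19 and 6.85 in 10C and 7.78, 7.85 and 7.49 in 6C+4CP, higher by 0.62 in all mice (SE 0.16; limma, adjusted p = 0.61). Il1rap, the accessory chain of the interleukin 1 receptor, differed by -0.14 (SE 0.052) in its brightest probe set and by 0.23 in 1421844_at, each without overlap, so its direction is not settled. Il1r1 differed by 0.32 (SE 0.13) and Rela by 0.083 (SE 0.037). Limma called 1 gene of the list, Nfkbib, whose values were shared by all mice to within 1e-09. Its difference was -1e-09, so the call shows no readable difference between the diets.

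Of 8 measured transcription factors that act on acute phase promoters 7 varied, with the mean on 6C+4CP higher in 7 and lower in 0, and a median of 0.12. Among all 4074 varying genes 1954 were higher. Without 10C replicate 1 or without 6C+4CP replicate 2, 5 of the 7 factors were higher and 2 lower. Limma called 0 of these factors. The diets did not overlap in 1 of the 7 (14.3%), against 21.4% of all varying genes. This was Hnf4a, the nuclear receptor of hepatocyte identity, which differed by 0.40 (SE 0.13) in its brightest probe set. Its probe set 1427000_at differed by 0.93 (SE 0.23), also without overlap, and 1450447_at by -0.019 with overlap. Cebpa, which keeps hepatocyte genes on, differed by 0.33 (SE 0.28), Creb3l3 by 0.11 (SE 0.071) and the glucocorticoid receptor Nr3c1 by 0.070 (SE 0.069). Cebpb and Cebpd, the inducible C/EBP factors, read 10.52 and 7.71 in 10C replicate 2, inside the range of the other mice, and each difference turned below 0 without 10C replicate 1 or 6C+4CP replicate 2.

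Glucocorticoids enhance the acute phase response, and of 7 of their targets 6 varied, 5 higher and 1 lower on 6C+4CP. Sgk1, a kinase, differed by 0.28 (SE 0.073) and Tsc22d3, an anti-inflammatory leucine zipper protein, by -0.37 (SE 0.15) in its brightest probe set, both without overlap. Another Tsc22d3 probe set, 1425281_a_at, differed by -0.67 (SE 0.30) with overlap. Zbtb16 differed by 0.75 (SE 0.34) and Pck1, an enzyme of glucose synthesis, by 0.28 (SE 0.21). Limma called 0 of these 7.

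Of 10 relatives of Socs3 and Steap4, 3 varied in their brightest probe set. Socs2, which restrains growth hormone signalling, read 9.77, 8.18 and 7.95 in 10C and 7.13, 7.05 and 7.13 in 6C+4CP. All mice on 6C+4CP were below all mice on 10C, with a difference of -1.53 (SE 0.56; limma, adjusted p = 0.704), and -0.97 without 10C replicate 1. Socs1 differed by -0.013, also without overlap, and Cish by 0.070, which turned below 0 without 10C replicate 3 or 6C+4CP replicate 1.

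**Figure D4:**
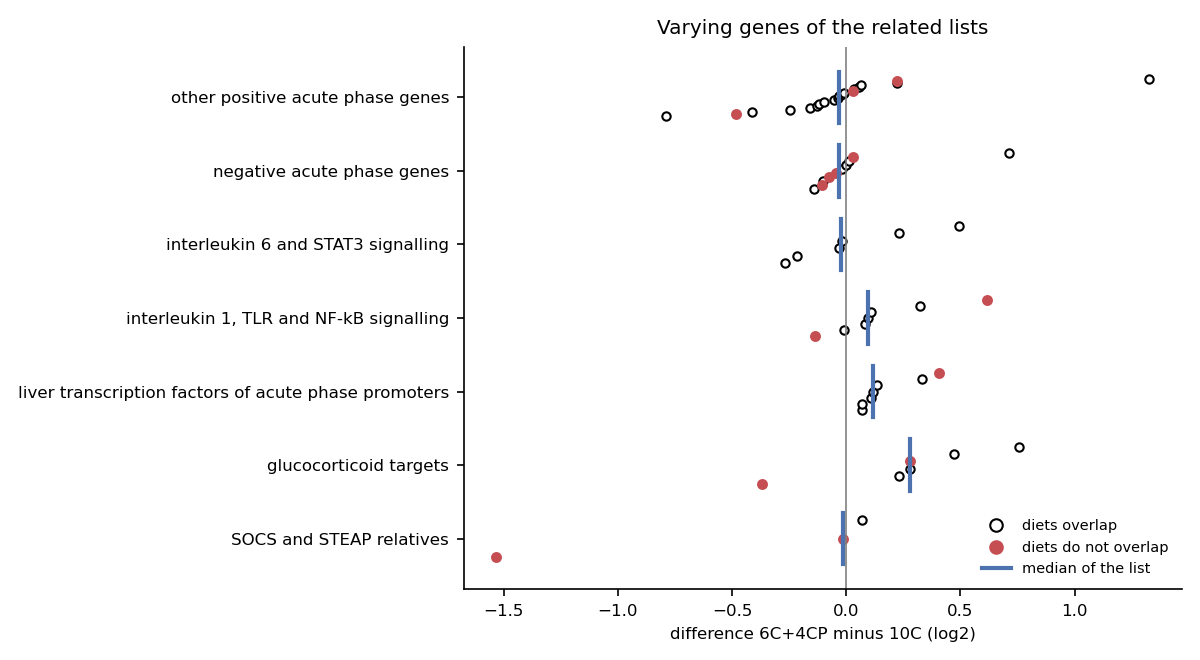
Differences in log2, 6C+4CP minus 10C, of the varying genes in 7 related lists, with a point for each gene, red where the 3 mice of each diet lie apart, and a blue bar at the list's median. Medians run from -0.034 in the other positive acute phase genes to 0.28 in the glucocorticoid targets, and limma called 0 of the genes drawn.

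Cells other than hepatocytes also make Lcn2, Saa3, Steap4 and Il1rn. All 11 measured neutrophil markers, S100a8 and S100a9 among them, held shared values, with a summed linear level of 892 on every array. Of 14 markers of Kupffer cells and macrophages 9 varied, 7 lower and 2 higher. Without 10C replicate 3 the count was 4 lower and 5 higher, and without 6C+4CP replicate 3 it was 9 lower and 0 higher. The summed level of the 14 was 3531 to 4696 in 10C and 3171 to 4260 in 6C+4CP. In 10C replicate 2 that sum was 3531, the lowest of its diet, and that mouse was the highest in 0 of the 9. Lyz2 and Cd5l, both of macrophages, differed by -0.28 (SE 0.16) and -0.28 (SE 0.19). Of 6 adipocyte markers 1 varied, Cidec, higher by 0.20 (SE 0.058), and of 4 B cell markers 1, Ighm, differed by -0.66 (SE 0.17), each without overlap. The 7 hepatocyte markers summed to 82872 to 84375 in 10C and 80234 to 82348 in 6C+4CP, with 10C replicate 2 the highest, and the part of this in the member values was not tested. Of the other lists, all 5 measured markers of cholangiocytes held shared values, and 4 of 8 for stellate cells, 1 of 7 for sinusoidal endothelium, 1 of 6 for T or NK cells and 1 of 2 for erythroid cells varied, all with overlap between the diets. No detection call comes with these values, so a marker's absence cannot be read from them.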

How the data were processed

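Total RNA from liver of 6 mice, 3 on each diet, was labelled with biotin from 100 ng and hybridised to 1 array per mouse, following the labels' protocols. The values are the authors' deposited log2-like values, 1 column per array. R 2.7.2 is named in the submitters' processing notes without a role, and the sources used here do not state the summarisation or the base of the logarithm. No depth or signal over background is given, so the number of arrays limits the precision. Of 45101 probe sets 64 controls were left out. GEO's platform annotation gave 1 symbol for 34945 of the rest, several for 932 and none for 9160.

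The test was limma 3.58.1, run in R 4.3.3 on all 45037 probe sets of the 6 arrays without covariates. A call is an adjusted p under 0.05 (Benjamini-Hochberg). The fit was tested on simulated data. Differences are 6C+4CP minus 10C, and a listed gene is represented by its probe set with the highest mean. Lists got no test of their own. The members and the 7 process and 10 cell type lists were chosen with earlier results of these data known. Within a list the genes named are those called and up to 4 (cell types 2) by smallest p among varying genes, and the 8 most like Saa1 follow the likeness rule in the text. Hamp, Lrg1, Orm1, Orm3, Serpina3n, Fgb, Cebpb, Cebpd, Il6, Alb and the genes of the closing section were named after their values were seen. Alternatives were: a block for the replicate number, leaving out each mouse, quantile normalization, median centring, only varying or only brighter probe sets, a trended robust variance, an adjusted p under 0.1, a range over 0.1 and the mean of a gene's varying probe sets. A fit of varying probe sets without 10C replicate 2 was added after seeing the data.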

Additional observations from a re-analysis of the deposited data

How the results depend on the processing

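The count of 0 member probe sets called by limma held under all alternatives run. The count of 109 over all probe sets was 3 with the replicate number as a block, 1 after quantile normalization, and 0 after median centring, in the brighter part of the probe sets, with an intensity trend and robust variance, and among varying probe sets with or without 10C replicate 2, and it ran from 285 to 398 with any 1 mouse left out. Member probe sets whose diets do not overlap numbered 2 to 7 with any 1 mouse left out. Same-numbered mice deviated from their diets' means with correlations of 0.48, -0.089 and 0.085 across 7791 varying probe sets, which are not independent replicates, so the numbers were not taken to pair the mice, and not every mouse was closest to its own number. Differences turned as follows. Saa2 was 0.073 without 10C replicate 2, also in the added fit of varying probe sets, in a leave-one-out range of -2.32 to 0.073. Hp was 0.018 after quantile normalization and 0.010 in the added fit, with a leave-one-out range of -0.038 to 0.010, and Saa3 ran from -0.034 to 0.00060. In the added fit Arsg was 0.068 and Dtymk 0.090, with leave-one-out ranges of -0.48 to 0.068 and -0.42 to 0.090. Leave-one-out ranges that cross 0 were also -0.41 to 0.030 for Lifr, -0.026 to 0.15 for Cish, -0.080 to 0.17 for Orm1, -0.090 to 0.35 for Cebpb and -0.093 to 0.18 for Cebpd. The causes were not tested. With 3 mice per diet and most values shared, neither a small difference nor a shared value shows that the diets were alike.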

Other observations

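Other mice also stood apart in single genes of the related lists. Mt1, a metal-binding metallothionein that inflammation and glucocorticoids induce, read 9.87 in 10C replicate 3 and 7.29 to 7.83 in the other mice, and its relative Mt2 read 7.89 there and 7.05 to 7.41 elsewhere. Hamp2, a second hepcidin gene, read 9.99 in 10C replicate 1 and 9.80 in 6C+4CP replicate 3, against 7.86 to 8.33 in the other mice, which is not the order of Hamp. Apcs, serum amyloid P, read 11.02 in 10C replicate 3 and 11.63 to 12.43 in the other mice. Serpina6, the plasma carrier of glucocorticoids, read 9.58 in 10C replicate 2 and 10.14 to 11.26 in the other mice.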
